A study of Mus musculus with 8 samples.

Results

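Transcripts of sterol synthesis and of its control by the SREBP proteins were examined in mouse kidney through 27 genes, out of 49315 gene IDs in the count tables. The genes are given by a list of symbols: 20 enzymes of the route from acetyl-CoA to cholesterol, 5 regulators and 2 genes of sterol transport and uptake. The set was picked from the values of these same libraries, because enzyme genes were lower in the knockout kidneys than in the controls. The difference between genotypes is therefore given for these genes as a description: calls from the fit over all genes are counted only to set them beside the share called genome-wide, and are not a test of these genes. Polyadenylated RNA was sequenced from frozen mouse kidney tissue in 8 libraries of 2 groups, 4 labelled as controls, which the extraction protocol calls wild type, and 4 labelled as conditional knockouts for Kdm1a. The product of this gene, LSD1, is a histone demethylase that works in repressor complexes. The labels used here give no strain, age, sex, allele or Cre driver, so the cells in which the gene was deleted are not known from them. Nothing in them says whether the replicates come from separate animals, and p-values measure only the spread between these libraries.

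Cells build cholesterol from acetyl-CoA through mevalonate, isoprenoid diphosphates, squalene and lanosterol. SREBP-2, encoded by Srebf2, is held in the endoplasmic reticulum by SCAP and the INSIG proteins while sterols are plentiful. When sterols run low, SCAP carries it to the Golgi, where it is cut, and the freed part enters the nucleus and raises transcription of the enzymes of the pathway, of Insig1 and of Srebf2 itself, together with the general factors NF-Y and Sp1. SREBP-1, encoded by Srebf1, acts more on fatty acid genes.

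The libraries held from 19524945 to 28544511 counts. Kdm1a was at 110 to 120 counts per 1000000 counts of the library (CPM) in controls and at 90.9 to 95.3 CPM in knockouts, so the groups did not overlap (log2 fold change −0.27, SE 0.05, edgeR adjusted p 0.0194, and 0.0765 without knockout replicate 4). With 1 library left out, its edgeR adjusted p was under 0.05 in 3 of the 8 fits. The first principal component of log2 CPM put control replicate 2 (9.56) next to knockout replicate 3 (9.71), between the other controls (−78.7 to −52.4) and the other knockouts (48.3 to 68.4). Summed transcripts of 4 Y-linked genes were at 0.760 to 2.63 CPM in control replicate 2 and knockout replicates 1 and 4, and at 229 to 289 CPM in the other 5 libraries. Summed transcripts of 12 adrenal genes reached 3462 CPM for knockout replicate 1, 437 CPM for knockout replicate 4 and 233 CPM for control replicate 4, against 42.0 to 73.4 CPM in the other 5. These libraries are named beside the results they touch.

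Most genes of the pathway were lower in every knockout kidney. All 27 passed the filter on low counts, and 19 of them met the call used here, an edgeR adjusted p under 0.05 over all genes tested, each with a lower level in the knockout. Across the genome 8.27% of the 18485 genes tested were called lower and 6.61% higher. Of the 20 enzymes, 16 were called lower and 4 were not called, and among the others Srebf2, Insig1 and Stard4 were called lower. The 4 knockout libraries lay below all 4 controls for 18 of the 27 genes, where 9.58% of all genes tested did. The median log2 fold change was −0.67 over the 20 enzymes and 0.00440 over all genes tested. None of the 27 was called higher by edgeR, DESeq2 or limma-voom, and 0 of them had a positive change at an unadjusted p under 0.05 in edgeR. Over all genes, 18.6% were lower and 16.5% higher at an unadjusted p under 0.05 in edgeR. DESeq2 called 12.2% lower and 9.53% higher, and limma-voom 22.9% lower and 22% higher. Since the genes were picked for this difference, these counts describe the set and support nothing further. Single libraries set how many were called: 8 without control replicate 1, 3 or 4 or knockout replicate 1 or 2, and 3 (Hmgcs1, Idi1 and Sqle) without knockout replicate 4, a fit in which 153 genes were called in all.

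**Figure D1:**
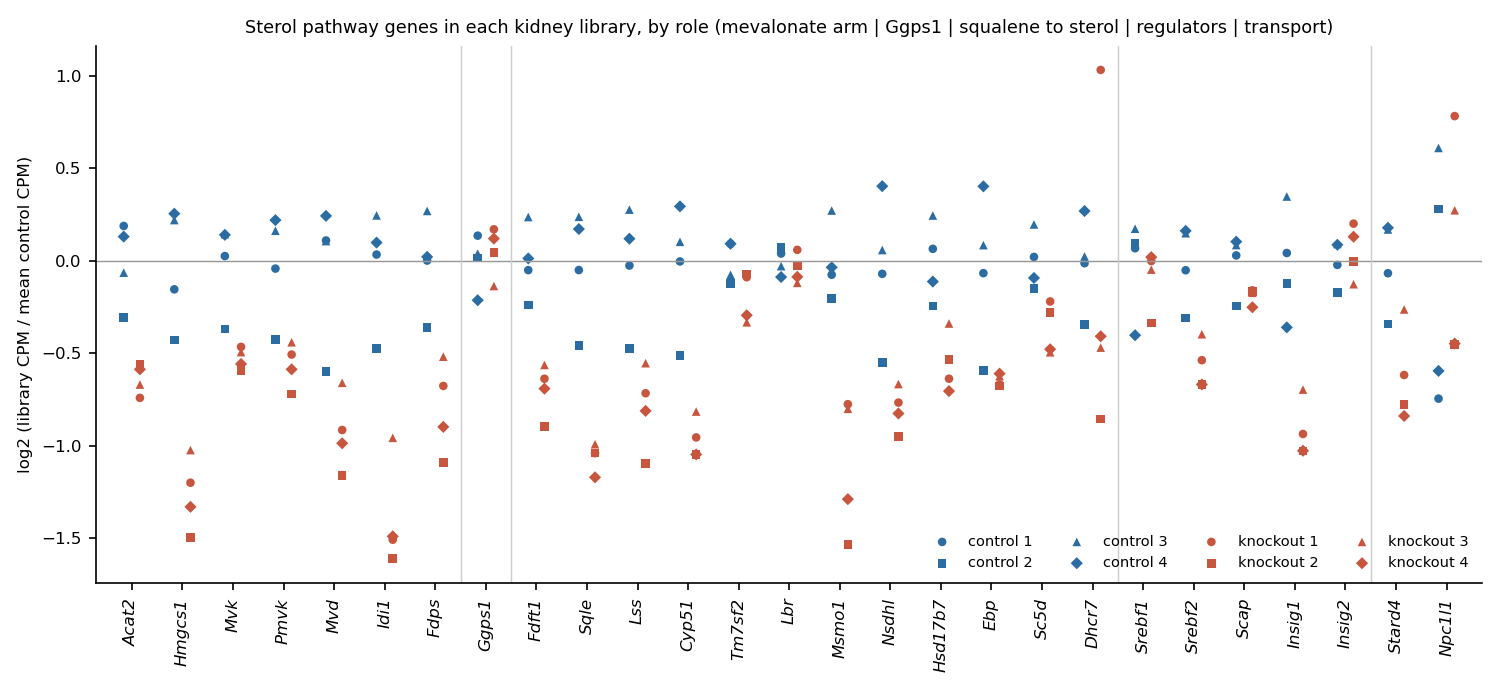
Level of each of the 27 genes in each library, as the log2 ratio to the mean control CPM, with controls in blue and knockouts in red and a marker shape for each replicate number. Knockout points of the mevalonate arm lie below all control points of the same gene, whereas Ggps1, Lbr, Srebf1 and Insig2 overlap and Dhcr7 has 1 knockout library far above the rest.

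The mevalonate arm makes isopentenyl and farnesyl diphosphate, and all 7 of its genes examined here were called lower. Hmgcs1 (ENSMUSG00000093930, chromosome 13, 119690462 to 119708086, GRCm38), which encodes the cytosolic HMG-CoA synthase, had 214, 177, 278 and 285 CPM in control replicates 1 to 4. In knockout replicates 1 to 4 it had 104, 84.3, 117 and 94.7 CPM. Every knockout was thus below the lowest control, and the mean went from 238 ± 51.7 to 99.98 ± 13.9 CPM (mean ± SD, n = 4 each), a log2 fold change of −1.25 (SE 0.16). Idi1 (ENSMUSG00000058258, chromosome 13, 8885501 to 8892451), the isopentenyl diphosphate isomerase, had 22.2, 15.6, 25.7 and 23.2 CPM in the controls. Its knockout levels were 7.60, 7.08, 11.1 and 7.70 CPM, and the log2 fold change of −1.37 (SE 0.19) was the largest among the 27 genes. Knockout replicate 3 was the highest knockout for both genes, and control replicate 2 the lowest control.

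Acat2, whose product joins acetyl-CoA units at the start of the route, was at 57.7 to 81.3 CPM in controls and 42.7 to 48.4 CPM in knockouts (log2 fold change −0.64, SE 0.11). Later in the route, after the step of Hmgcs1, the kinases Mvk and Pmvk differed least within the arm. Mvk was at 25.9 to 37.0 CPM in controls and 22.2 to 24.2 CPM in knockouts, a change of −0.53 (SE 0.11). For Pmvk these ranges were 28.3 to 44.3 and 23.0 to 28.0 CPM (−0.56, SE 0.14), so the groups came close without overlapping. The decarboxylase gene Mvd was at 23.8 to 42.7 CPM in controls and 16.1 to 22.8 CPM in knockouts (−0.92, SE 0.18). Fdps, which encodes farnesyl diphosphate synthase, was at 38.2 to 59.1 CPM in controls and 23.0 to 34.2 CPM in knockouts (−0.78, SE 0.15). The arm as a whole summed to 488 ± 89.0 CPM in controls and 251 ± 24.3 CPM in knockouts, which is 51.4% of the control level. Its genes did not differ in proportion: Hmgcs1 made up 44.9% to 50.9% of the sum in controls and 37.6% to 41.6% in the knockouts.

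Ggps1, at the branch that leads from farnesyl diphosphate to geranylgeranyl diphosphate for protein prenylation, did not follow the arm. Its level was 37.0, 34.0, 34.5 and 29.0 CPM in controls and 37.8, 34.7, 30.6 and 36.5 CPM in knockouts. The groups overlapped fully (log2 fold change 0.05, SE 0.10, not called). Per kilobase of exon, the ratio of Fdps to Ggps1 was 0.827 ± 0.165 in controls and 0.466 ± 0.114 in the knockouts.

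From squalene to cholesterol, 9 of 12 enzyme genes were called lower. Fdft1, the squalene synthase, had 57.6, 50.5, 70.3 and 60.2 CPM in controls and 38.3, 32.1, 40.4 and 36.9 CPM in knockouts (log2 fold change −0.69, SE 0.11). The groups did not overlap. Sqle (ENSMUSG00000022351, chromosome 15, 59315077 to 59331192), the squalene epoxidase and an early control point of the route, had 74.2, 55.9, 90.6 and 86.6 CPM in the controls. It had 37.3, 37.3, 38.6 and 34.1 CPM in knockouts, a narrow range, and differed by −1.06 (SE 0.14). Lss, which closes the sterol rings to give lanosterol, was at 27.3 to 45.9 CPM in controls and 17.7 to 25.8 CPM in knockouts (−0.78, SE 0.17). Cyp51, the lanosterol demethylase, was at 60.6 to 106 CPM in controls and 41.8 to 49.1 CPM in knockouts (−0.96, SE 0.15).

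The enzymes that strip methyl groups from the lanosterol skeleton were lower as well. Msmo1 (ENSMUSG00000031604, chromosome 8, 64718139 to 64733792), the sterol C4 methyl oxidase, had 50.2, 45.9, 63.8 and 51.6 CPM in controls and 30.9, 18.2, 30.3 and 21.6 CPM in knockouts (−1.06, SE 0.18). Here the knockouts split into a higher pair, replicates 1 and 3, and a lower pair, replicates 2 and 4. Its partners in C4 demethylation were Nsdhl, at 21.7 to 42.0 CPM in controls and 16.4 to 19.96 CPM in knockouts (−0.80, SE 0.18), and Hsd17b7, at 20.7 to 29.1 and 15.04 to 19.4 CPM (−0.55, SE 0.13). Ebp, the isomerase that moves the ring double bond, was at 17.4 to 34.7 CPM in controls and 16.4 to 17.2 CPM in knockouts (−0.65, SE 0.18). Its lowest control, replicate 2, was nearly at the knockout level. Sc5d, the desaturase that follows, had the smallest change among the called enzymes, from 39.4 ± 4.27 to 30.6 ± 2.96 CPM (−0.36, SE 0.10).

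A total of 3 late enzyme genes were not called, and they differed in how. Lbr and Tm7sf2 both encode a sterol C14 reductase, and Lbr is also a receptor for lamin B in the nuclear envelope. Lbr was at 66.8, 68.3, 63.7 and 61.2 CPM in controls and 67.7, 63.9, 59.9 and 61.2 CPM in knockouts (−0.04, SE 0.07). Tm7sf2 was at 16.2 to 18.8 CPM in controls and 14.0 to 16.8 CPM in knockouts (−0.19, SE 0.10). Both overlapped between genotypes. Dhcr7 (ENSMUSG00000058454, chromosome 7, 143823145 to 143848410), the reductase of the last step to cholesterol, had 25.9, 20.6, 26.6 and 31.5 CPM in controls and 53.6, 14.5, 18.9 and 19.7 CPM in knockouts. Knockout replicate 1 was thus the highest of the 8 libraries, and the other 3 knockouts, at 17.7 ± 2.83 CPM (mean ± SD, n = 3), lay below all controls. With all libraries the log2 fold change was 0.03 (SE 0.38), and without knockout replicate 1 it was −0.56, not called in either fit. Its sign held in 12 of the 19 alternative fits, and that of Ggps1 and of Lbr in 17. Knockout replicate 1 is also the library with the most adrenal transcripts, and with the adrenal level as a covariate the change of Dhcr7 was −0.52. The part of adrenal RNA in the level of Dhcr7 was not tested.

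Promoter sequences are shown for 6 genes to set strongly lower ones (Hmgcs1, Idi1, Msmo1, Insig1) beside 2 that were not called (Ggps1, Lbr). Each line gives the 250 bases before a RefSeq start site (GRCm38.p6), read 5′ to 3′ on the strand of the gene. The bases after the start site were found in a GENCODE transcript for 4 of the 6, but not for Hmgcs1 and Lbr. The RefSeq start used for Hmgcs1 lies upstream of the gene start given above, so positions count from the RefSeq start. The window of Lbr lies within the annotated gene (chromosome 1, 181815335 to 181843046), not upstream of it. The windows are chr13:119690101-119690350 (plus strand) for Hmgcs1, chr13:8885356-8885605 (plus) for Idi1, chr8:64733579-64733828 (minus) for Msmo1 and chr5:28071162-28071411 (plus) for Insig1. Those of Ggps1 and Lbr are chr13:14063489-14063738 and chr1:181842402-181842651, both minus. Capitals mark the NF-Y box CCAAT, on either strand, and the core of a sterol regulatory element, TCACNCCAC, on either strand.
Hmgcs1: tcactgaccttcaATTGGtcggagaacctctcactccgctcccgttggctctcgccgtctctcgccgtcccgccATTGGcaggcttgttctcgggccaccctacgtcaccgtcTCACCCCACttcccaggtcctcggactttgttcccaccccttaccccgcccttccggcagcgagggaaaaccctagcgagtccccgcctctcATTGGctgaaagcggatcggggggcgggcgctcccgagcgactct
Idi1: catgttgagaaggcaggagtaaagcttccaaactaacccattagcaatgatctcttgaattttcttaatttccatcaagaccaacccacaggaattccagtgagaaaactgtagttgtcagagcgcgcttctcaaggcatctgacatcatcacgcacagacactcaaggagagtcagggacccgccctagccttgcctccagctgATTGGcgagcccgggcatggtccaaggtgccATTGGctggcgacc
Msmo1: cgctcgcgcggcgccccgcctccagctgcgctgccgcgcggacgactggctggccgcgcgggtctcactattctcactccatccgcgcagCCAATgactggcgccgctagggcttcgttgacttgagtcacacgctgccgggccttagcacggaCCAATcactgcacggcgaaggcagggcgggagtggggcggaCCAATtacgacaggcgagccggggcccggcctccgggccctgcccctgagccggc
Insig1: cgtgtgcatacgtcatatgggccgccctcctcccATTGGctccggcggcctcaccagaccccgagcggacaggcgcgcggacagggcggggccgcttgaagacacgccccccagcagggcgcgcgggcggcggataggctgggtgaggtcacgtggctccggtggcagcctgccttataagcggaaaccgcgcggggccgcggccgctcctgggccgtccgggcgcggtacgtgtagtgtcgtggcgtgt
Ggps1: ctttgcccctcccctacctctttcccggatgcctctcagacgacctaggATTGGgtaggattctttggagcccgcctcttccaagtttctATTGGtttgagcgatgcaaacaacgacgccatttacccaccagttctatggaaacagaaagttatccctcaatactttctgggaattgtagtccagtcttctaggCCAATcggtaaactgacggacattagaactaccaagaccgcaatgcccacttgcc
Lbr: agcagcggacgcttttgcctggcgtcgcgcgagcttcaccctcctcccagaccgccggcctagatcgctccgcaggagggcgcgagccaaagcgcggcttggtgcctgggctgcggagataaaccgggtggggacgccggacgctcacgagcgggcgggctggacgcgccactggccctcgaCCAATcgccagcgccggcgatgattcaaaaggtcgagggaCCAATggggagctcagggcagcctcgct

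RefSeq windows were matched for 23 of the 27 genes, with 31 windows, and Fdps, Fdft1, Sqle and Stard4 had none in the table used. The NF-Y box was found in 71.0% of the 31 windows, against 33.8% of 32851 windows of the same length over all genes. It occurred at least 2 times in 38.7% of the member windows and in 10.1% of all windows. By gene, 14 of 15 called lower and 7 of 8 not called held the box in at least 1 window, as did 37.5% of all genes. Dhcr7, Srebf1, Insig2 and Scap among those not called, and Pmvk among those called, had several windows each. A gene with more windows can hold the box more easily, so the shares are not on equal terms. The difference between them was not tested. Among those not called, Ggps1 held 3 copies and Lbr 2. The Sp1 box GGGCGG, searched on both strands, was in 74.2% of the member windows and 32.7% of all windows. The sterol regulatory element core was found in 1 member window, that of Hmgcs1, 137 bases before its RefSeq start, and in 1.05% of all windows. Letters alone show no binding, and other forms of the element were not searched. None of these letter strings is part of another.

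Of the 5 regulators, Srebf2 and Insig1 were called lower and Srebf1, Insig2 and Scap were not called. Srebf2 (ENSMUSG00000022463, chromosome 15, 82147266 to 82205376) had 127, 106, 146 and 147 CPM in controls and 90.5, 82.6, 99.7 and 82.6 CPM in knockouts. All knockouts lay below all controls, at 67.6% of the control mean (log2 fold change −0.56, SE 0.11). Srebf1 (ENSMUSG00000020538, chromosome 11, 60199089 to 60222581) had 91.6, 93.2, 98.6 and 66.1 CPM in controls and 87.3, 69.2, 84.5 and 88.6 CPM in knockouts (−0.08, SE 0.13). Its groups overlapped, with control replicate 4 the lowest library of all. Per kilobase of exon, the ratio of Srebf2 to Srebf1 was 1.28 to 2.51 in controls and 1.05 to 1.35 in the knockouts, which overlap.

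Insig1 (ENSMUSG00000045294, chromosome 5, 28071363 to 28078662), a retention protein for SCAP whose gene is itself a target of SREBP, had 85.4, 76.1, 105.5 and 64.6 CPM in the controls. In the knockouts it had 43.3, 40.6, 51.1 and 40.6 CPM, below every control (−0.92, SE 0.15). Insig2 (ENSMUSG00000003721, chromosome 1, 121304353 to 121332589), which retains SCAP as well, had 38.1, 34.3, 41.2 and 41.0 CPM in controls and 44.4, 38.5, 35.4 and 42.3 CPM in knockouts (0.06, SE 0.09). These overlap. The ratio of Insig1 to Insig2 per kilobase of exon was 1.77 to 2.88 in controls and 1.08 to 1.62 in the knockouts, which do not overlap. Scap, the escort protein, was at 55.9 to 71.1 CPM in controls and 55.6 to 59.3 CPM in knockouts (−0.19, SE 0.08, not called). Its groups overlapped through control replicate 2. Without that library Scap was called lower, in a fit that called 19.0% of all genes tested lower. It was called in 3 of the 19 alternative fits.

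**Figure D2:**
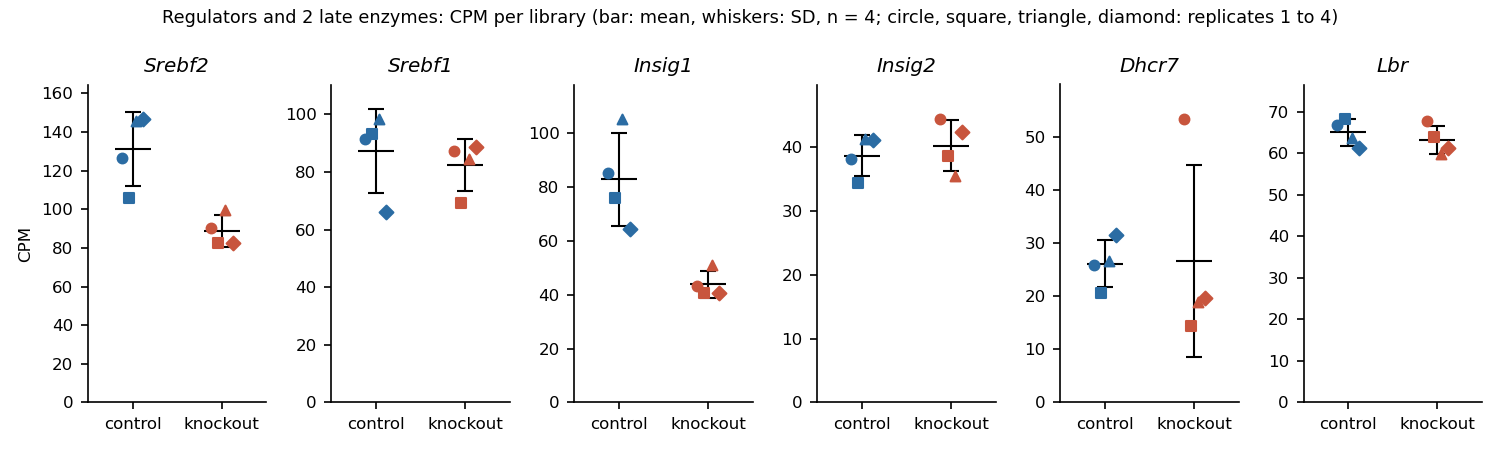
CPM of Srebf2, Srebf1, Insig1, Insig2, Dhcr7 and Lbr in each library, with controls in blue, knockouts in red, the mean as a bar and the SD as whiskers (n = 4 each). Srebf2 and Insig1 separate by genotype, the other 4 genes overlap, and knockout replicate 1 stands alone for Dhcr7 at 53.6 CPM.

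Stard4, which carries cholesterol through the cytosol, was the remaining called gene. Its level was 74.9, 61.9, 88.3 and 88.9 CPM in controls and 51.1, 45.8, 65.4 and 43.9 CPM in knockouts (−0.61, SE 0.15). Knockout replicate 3 exceeded control replicate 2, which makes Stard4 the only called gene of the set whose groups overlapped. Npc1l1, the sterol uptake transporter of the gut, was near the limit of detection, with 32 counts summed over controls and 38 over knockouts. At 0.205 to 0.591 CPM in all libraries, a difference was not detectable at this depth.

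Levels of different genes can be compared only per kilobase of exon. On that scale Hmgcs1 was the most abundant of the 27 in both groups, at 73.7 ± 16.0 CPM per kilobase in controls and 30.9 ± 4.31 in the knockouts. Acat2 (28.0 ± 4.20), Insig1 (26.8 ± 5.60) and Srebf2 (26.3 ± 3.87) followed in the controls, and these 3 did not differ beyond their spread. Lss (3.51 ± 0.735) and Npc1l1 (0.0769 ± 0.0344) were the lowest. The lengths are of all annotated exons of a gene, so a gene with long rarely used exons ranks lower than its transcripts would.

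Among the called genes, the same libraries were often the extreme ones of their group. Control replicate 2 was the lowest control for 18 of the 19, the exception being Insig1, where control replicate 4 was lowest. Knockout replicate 3 was the highest knockout for 14 of the 19 and knockout replicate 2 the lowest for 13. The SD of log2 CPM was larger among the controls than among the knockouts for 17 of the 19, with medians of 0.29 and 0.14. The same counts over all genes are not given here, so these patterns are not shown to be particular to the set. On the first principal component of all genes, control replicate 2 and knockout replicate 3 lay between the other controls and the other knockouts. Without control replicate 2 and knockout replicate 3 together, 20 genes of the set were called lower, among 7903 called in all, and the enzyme median was −0.81. Without knockout replicates 1 and 4, the enzyme median was −0.69 with 0 genes of the set called by edgeR, 20 at an unadjusted p under 0.05, and 1 gene called in the whole table.

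**Figure D3:**
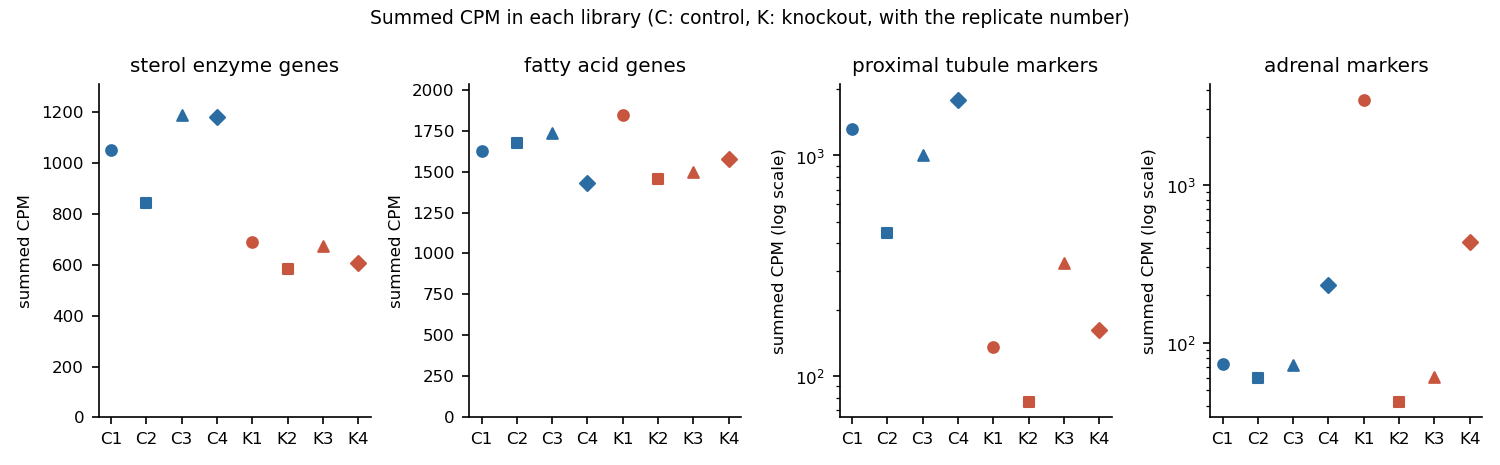
Summed CPM in each library for the 20 sterol enzymes, the 17 genes of fatty acid synthesis, 10 proximal tubule markers and 12 adrenal markers, the last 2 on a log axis, with controls C1 to C4 in blue and knockouts K1 to K4 in red. Sterol enzymes sum to 841 to 1190 CPM in controls and 583 to 689 CPM in knockouts, while the fatty acid genes overlap.

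Most markers of nephron cell types were lower in the knockouts, as the sterol genes were. Over the 20 enzymes the sum was 1066 ± 163 CPM in controls and 639 ± 50.9 CPM in knockouts, or 59.9% of the control level. Over 10 proximal tubule markers, among them Aqp1, Lrp2 and Slc34a1, the sum was 446 to 1791 CPM in controls and 76.2 to 325 CPM in knockouts, or 15.3% of the control level. All 10 were called lower (from 1 without knockout replicate 4 to 10 without control replicate 2 or knockout replicate 3, with 1 library left out). For this and the next 3 lists, the shares of all genes called were 8.27% lower and 6.61% higher. Of 5 thick ascending limb markers, among them Slc12a1, Umod and Ppp1r1a, 3 were called lower, and the sums were 223 to 1026 and 35.4 to 300.1 CPM. Of 5 podocyte markers, among them Wt1, Podxl and Synpo, 2 were called lower, with sums of 378 to 559 and 279 to 340 CPM. Wt1 did not differ, at 190 ± 34.3 CPM in controls and 196 ± 19.1 CPM in knockouts (log2 fold change 0.04, SE 0.13, not called). For both of these nephron lists 0 genes were called without control replicate 3 or 4 or knockout replicate 1, 2 or 4, each left out alone, and 0 podocyte genes were called with the adrenal covariate. Of 5 stromal markers, Pdgfra was called higher, Col3a1 and Col1a1 were not called, and the sums were 1942 to 2649 and 2180 to 3756 CPM. No marker of these 4 lists was at 0 in any library. Control replicate 2 had the lowest proximal tubule sum of the controls and knockout replicate 3 the highest of the knockouts, as for most of the called sterol genes. The sum of the enzymes was highest among knockouts in replicate 1 (689 CPM), where the proximal tubule sum was 136 CPM. In that library Dhcr7 alone was at 53.6 CPM, against 14.5 to 19.7 CPM in the other knockouts. Knockout replicate 3 had the next highest enzyme sum (674 CPM) and the highest sum of the mevalonate arm (282 CPM). The part of tubule content in the sterol genes was not tested, and in whole tissue fewer cells of a type and less RNA per cell cannot be told apart.

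Other tissues were checked in the same way. Adrenal markers, among them Cyp21a1, Star and Akr1b7, summed to 60.3 to 233 CPM in controls and 42.0 to 3462 CPM in knockouts, and Cyp11b1 had 0 counts in 1 control. Of the 11 tested, 0 were called by edgeR or limma-voom and 3 by DESeq2, and 6 had an unadjusted p under 0.05 in edgeR. With the adrenal level as a covariate 14 of the 27 sterol genes were called lower, among 1437 genes in all, and the enzyme median was −0.71. Adipose markers summed to 200 to 276 and 143 to 223 CPM, nearly all of it Fabp4, with Plin1 at 6.42 CPM or less and Adipoq at 1.16 CPM or less. The adipose hormone gene Lep had 0 counts in all 4 controls and 2 knockouts. Red blood cell genes, among them Hbb-bs, Hba-a1 and Hbb-bt, summed to 391 to 814 and 454 to 1391 CPM. The Y-linked genes (among them Ddx3y, Eif2s3y and Kdm5d) split the libraries across genotypes, and with their level as a covariate 16 sterol genes were called lower and the enzyme median was −0.62.

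Neighbouring pathways were followed through 61 further genes in 5 lists, none of them among the 27. Over all 5 lists, 6 genes were called lower and 5 higher, where 8.27% and 6.61% of all genes were called, and the median log2 fold change was −0.07. Pooled over the 61 genes, these counts are close to the shares over all genes and show nothing particular to the pool. They cannot describe single lists, because the lists differed in direction. List medians ran from −0.22 for genes that use isoprenoids to 0.48 for oxysterol and bile acid enzymes. For SREBP processing and turnover, 3 of 12 genes were called lower and 0 higher (list median −0.02). DESeq2 called 4 lower and 0 higher, where it called 12.2% and 9.53% of all genes. With limma-voom 5 were called lower and 1 higher, where it called 22.9% and 22% of all genes. At an unadjusted p under 0.05 in edgeR 5 were lower and 1 higher, where 18.6% and 16.5% of all genes were. Erlin1, which encodes an endoplasmic reticulum protein that takes part in the turnover of sterol sensors, had 81.9, 52.2, 67.2 and 76.3 CPM in controls and 46.2, 50.3, 47.0 and 46.4 CPM in knockouts. All knockouts were below all controls, and Erlin1 fell by 0.55 on the log2 scale (SE 0.13, edgeR adjusted p 0.0268). Nfyc, a subunit of NF-Y, changed by −0.30 (SE 0.08, edgeR adjusted p 0.0370), while Nfya (0.06) and Nfyb (0.04) were not called. The protease genes Mbtps1 and Mbtps2, whose products cut SREBP in the Golgi, differed by −0.04 and 0.12 and were not called.

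Fatty acid synthesis and desaturation, the programme of SREBP-1, gave 0 calls among 17 genes with edgeR, 6 genes at an unadjusted p under 0.05 (3 lower and 3 higher), 3 calls with DESeq2 and 7 with limma-voom. At the unadjusted level 18.6% of all genes were lower and 16.5% higher, and limma-voom called 22.9% and 22% of all genes, so these counts are near the background. The list median was −0.10. Scd2, a stearoyl-CoA desaturase, had 636, 805, 748 and 434 CPM in controls and 765, 615, 634 and 724 CPM in knockouts, which overlap (0.06, SE 0.17, edgeR adjusted p 0.820). Acly, which supplies cytosolic acetyl-CoA to both fatty acid and sterol synthesis, had 211, 159, 213 and 228 CPM in controls and 232, 149, 152 and 153 CPM in knockouts (−0.24, SE 0.16, edgeR adjusted p 0.313). As for Dhcr7, knockout replicate 1 was the highest library, and without it the change of Acly was −0.42, again not called. The list summed to 1616 ± 131 CPM in controls and 1594 ± 176 CPM in knockouts. Whether the sterol and fatty acid lists differ from each other was not tested, since the sterol genes were picked for their difference.

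**Figure D4:**
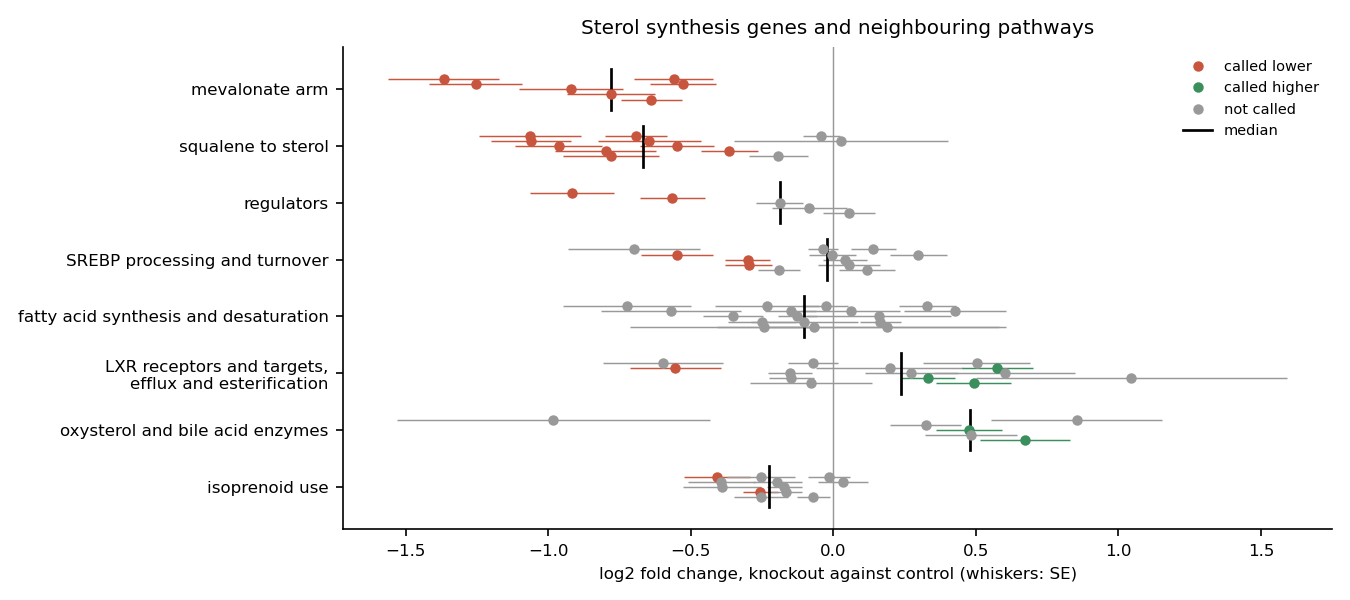
Log2 fold change of each gene, knockout against control, with its SE as whiskers and the list median as a black bar, for the sterol arms, the regulators and 5 neighbouring lists, coloured by whether the gene was called lower (red), higher (green) or not called (grey). The sterol arms have medians of −0.78 and −0.67, while the fatty acid list holds no called gene and the oxysterol list has a median of 0.48.

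In the list of LXR receptors and targets, efflux and esterification, 3 of 14 genes were called higher and 1 lower (median 0.24). Over all genes 6.61% were called higher and 8.27% lower. The median rested on knockout replicate 1, the library richest in adrenal transcripts: without it the median was −0.0055, and with the adrenal covariate it was 0.04, with 0 genes of the list called in either fit. The loss of calls was not particular to that library. Without control replicate 1, 3 or 4 or knockout replicate 4, each left out alone, 0 genes of the list were called as well. Without knockout replicate 1, 567 genes were called in all. Soat1, which esterifies cholesterol for storage, had 71.4, 92.0, 77.6 and 65.3 CPM in controls and 129, 98.7, 123 and 105 CPM in knockouts. The groups did not overlap, and Soat1 rose by 0.58 on the log2 scale (SE 0.12, edgeR adjusted p 0.0225). Gramd1a and Gramd1c, which encode sterol carriers at contacts between endoplasmic reticulum and plasma membrane, rose by 0.33 (SE 0.09, edgeR adjusted p 0.0455) and 0.49 (SE 0.13, edgeR adjusted p 0.0392). Lpcat3, a phospholipid acyltransferase, fell by 0.55 (SE 0.16, edgeR adjusted p 0.0480), although its groups overlapped through control replicate 2. Without knockout replicate 1, the log2 fold changes were 0.51 for Soat1, 0.30 for Gramd1a, 0.40 for Gramd1c and −0.58 for Lpcat3.

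Among 6 enzymes of oxysterol and bile acid formation, 2 were called higher and 0 lower, where 6.61% of all genes were called higher. At an unadjusted p under 0.05 in edgeR 5 were higher and 0 lower, where 16.5% of all genes were higher. DESeq2 and limma-voom called 3 and 5 higher and 0 lower, where they called 9.53% and 22% of all genes higher. Cyp7b1, an oxysterol hydroxylase, had 14.7, 24.2, 16.0 and 14.9 CPM in controls and 25.8, 29.3, 28.1 and 28.1 CPM in knockouts. It rose by 0.67 (SE 0.16, edgeR adjusted p 0.0286), with control replicate 2 nearer to the knockouts than to the other controls. Cyp39a1, another oxysterol hydroxylase, had 21.8, 23.3, 24.8 and 20.0 CPM in controls and 32.1, 27.1, 28.6 and 37.2 CPM in knockouts (0.48, SE 0.12, edgeR adjusted p 0.0301). The groups did not overlap for either gene, and the knockouts lay above all controls for 1718 of the 18485 genes tested.

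Genes that use isoprenoids for dolichol, ubiquinone and protein prenylation gave 2 calls lower and 0 higher among 12, with a median of −0.22. A total of 8 were lower at an unadjusted p under 0.05 in edgeR and 0 higher, and DESeq2 and limma-voom called 5 and 9 lower and 0 higher. The shares of all genes called lower in these 3 ways were 18.6%, 12.2% and 22.9%. Zmpste24, the protease that trims prenylated proteins, was at 56.2 to 64.8 CPM in controls and 48.7 to 51.2 CPM in knockouts (−0.26, SE 0.06, edgeR adjusted p 0.0308). Rabggta, a subunit of the Rab prenyltransferase, changed by −0.41 (SE 0.12, edgeR adjusted p 0.0456) with groups that overlapped through control replicate 2. Without control replicate 1, 3 or 4 or knockout replicate 1, each left out alone, 0 of the 61 genes of the 5 lists were called by edgeR, and 1 without knockout replicate 2. Without knockout replicate 4, 0 of the 61 genes of the 5 lists were called by edgeR, 24 had an unadjusted p under 0.05, and adjusted p values of the 11 genes called with all libraries ran from 0.0648 to 0.134.

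Shared exons limit some of these values. A total of 9 of the 27 genes share exon bases with another annotated gene, and the strand setting of the counting is not given in the sources used here. Fdft1 shares 26.8% of its exon bases with Ctsb, on the opposite strand and at 343 CPM, whose own change was −0.15 (SE 0.10, edgeR adjusted p 0.30). Ggps1 shares 7.18% with Arid4b (106 CPM, change 0.50, SE 0.17, edgeR adjusted p 0.0721), and Tm7sf2 shares 15.3% with Vps51 on its own strand (54.4 CPM, change −0.13). For Cyp51 and Srebf1 the shared part, with Akap9 and Rai1, was 3.76% and 1.93%. Fdps shares 26.7% with the predicted gene Gm43738, which was at 0.0766 CPM. How reads in shared bases were assigned is not known, so part of the level of Fdft1, Ggps1 and Tm7sf2 may belong to the neighbour. Acat2 and Idi1 each have a close paralog in the mouse, Acat3 and Idi2, and reads that match both copies make their levels less certain.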

How the data were processed

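Transcript counts of 8 mouse kidney libraries, 4 controls and 4 knockouts by their labels, were analysed. The authors deposited whole-number counts per gene with exon coordinates and lengths, per the file headers, and these counts are not normalized. Per the submitters' processing notes, Trimmomatic 0.36, STAR 2.5.2b, featureCounts of Subread 1.5.2 and DESeq2 were used with GRCm38; the notes give no settings. The deposited exon lengths (other values in the same files) were used only for levels per kilobase. The deposited series-wide table matched the per-library ones, with 0 differing cells.

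Symbols from GENCODE M21 matched 48970 IDs. Genes passing filterByExpr (18485) were TMM-scaled and tested by edgeR 4.0.16 (quasi-likelihood, R 4.3.3), with Benjamini-Hochberg adjustment, no covariate and a call at 0.05. The edgeR script was tested on simulated data. CPM uses TMM library sizes, and 1 count stood for 0.0350 to 0.0512 CPM before that scaling, so counting limits low genes such as Npc1l1. SE comes from the fold change and F statistic. Alternatives were DESeq2 1.42.0 or its size factors, limma-voom (limma 3.58.1) with sample weights, other filters, the replicate block, Y-linked and adrenal covariates, the series table and left-out libraries. The members and lists were chosen with earlier results of these data known. Named outside the members were up to 4 called genes of each pathway list by adjusted p (2 by mean CPM where none was called) and 3 by mean CPM of each marker list; Nfya, Nfyb, Mbtps1 and Mbtps2 were added after their values were seen, as were Cyp11b1 and Lep. A called gene of these lists is not reported here by name.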

Additional observations from a re-analysis of the deposited data

Results flagged for a closer look

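Values of single libraries were compared with the rest of their group by Dixon's ratio in 118 groups, of which chance flags about 1 in 20, and 10 stood apart. Dhcr7 was at 53.6 CPM in knockout replicate 1, against 14.5 to 19.7 CPM in the other knockouts. Acly was at 232 CPM in the same library, against 149 to 153 CPM. The summed adrenal markers were at 3460 CPM there, against 42.0 to 437 CPM, and at 233 CPM in control replicate 4, against 60.3 to 73.4 CPM in the other controls. Idi1 was at 11.1 CPM in knockout replicate 3, against 7.08 to 7.70 CPM, and the summed thick ascending limb markers were at 300 CPM in that library, against 35.4 to 72.5 CPM. Scap was lowest in knockout replicate 4, at 55.6 CPM, against 58.7 to 59.3 CPM. In control replicate 2, Cyp7b1 was high at 24.2 CPM, against 14.7 to 16.0 CPM, and the summed stromal markers were high at 2650 CPM, against 1942 to 1993 CPM. The summed LXR, efflux and esterification list was low in that control, at 772 CPM, against 847 to 857 CPM.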

How the results depend on the processing

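The enzyme median was −0.67 and stayed between −0.81 and −0.62 in the 19 alternatives. Genes called lower among the 27 numbered 19, from 3 to 20 with 1 library left out, and 0 without knockout replicates 1 and 4; genes called higher numbered 0 throughout. In all, 2751 genes were called, from 153 to 7084 with 1 library left out, 4441 with DESeq2, 8302 with limma-voom, 1437 with the adrenal covariate, 7903 without control replicate 2 and knockout replicate 3, and 1 without knockout replicates 1 and 4. Of the 61 genes of other pathways, 6 were called lower: from 0 to 21 with 1 library left out, 13 with DESeq2, 23 with limma-voom, 3 with the Y-linked covariate, 2 with the adrenal covariate, 20 without control replicate 2 and knockout replicate 3, and 0 without knockout replicates 1 and 4. Those called higher numbered 5: from 0 to 10 with 1 library left out, 12 with limma-voom, 3 with no filter, 3 with the replicate block, 1 with the adrenal covariate, 10 without control replicate 2 and knockout replicate 3, and 0 without knockout replicates 1 and 4. The cause of these shifts was not tested. Replicate numbers are shared by the groups, but same-numbered libraries did not deviate together (correlations −0.11, 0.33, 0.23 and −0.06), so the numbers were not taken as pairs; with the replicate block 18 of the 27 genes were called lower among 3229 in all, and the enzyme median was −0.66. Npc1l1 was too low to be tested in 6 of the alternatives.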

Other observations

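Knockout replicate 1, the library with the most adrenal transcripts, also held the highest level of the 8 libraries for several genes of the neighbouring lists. Scarb1, the receptor that takes up cholesterol esters from HDL, was at 288 CPM there and at 42.4 to 70.8 CPM in the other knockouts. Me1, which supplies NADPH, was at 64.5 CPM, against 14.0 to 23.6 CPM in the other knockouts. Fads2, a fatty acid desaturase, was at 75.7 CPM, against 31.8 to 41.1 CPM. Of the 27 sterol genes, 9 had their highest knockout level in this library. Among the 19 called lower it was the highest knockout for 3, and knockout replicate 3 for 14. The same counts over all genes are not given here, so they show nothing particular to the set. These genes were picked after their values were seen.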
